A study of Mus musculus with 5 samples.

Results

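Foxq1, Foxf2 and Foxc1 are 3 forkhead genes that lie side by side on mouse chromosome 13. The ubiquitin mark of histone H2A known as H2AK119Ub was followed across them as the listed peaks that share at least 1 bp with the 290 kb from position 31640000 to 31930000 (mm9). This choice took 6 of the 5132 listed peaks of the series: 1 of 620 in the HOXA9 list, 2 of 1772 in PML-RARa, 2 of 1408 in MLL-AF9 and 1 of 1332 in the non-transduced list. The stretch was chosen by its listed peaks, in the knowledge that the lists differ there, so the presence, width and score of a peak are described and not tested.

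The mark was mapped by chromatin immunoprecipitation and sequencing in lineage-negative (Lin-) bone marrow progenitors of C57BL/6 mice held in liquid culture. One culture was transduced with HOXA9, a homeobox transcription factor gene. Another received PML-RARa, the fusion gene found in acute promyelocytic leukaemia, and another MLL-AF9, a fusion gene found in acute myeloid leukaemia. The last was not transduced. All shared the genotype R26CreERT2;Ring1a-/-;Ring1bf/f;Cdkn2a-/-: a tamoxifen-inducible Cre at the Rosa26 locus, no Ring1a, loxP-flanked Ring1b alleles and no Cdkn2a. The labels give no Cre induction, no age or number of mice, and no cells transduced without an oncogene, so an oncogene's effect and that of transduction cannot be told apart. Each group was 1 library with 1 peak list, so there is no replicate error to set a difference against, and each difference is one between single libraries. The lists hold positions and scores only, so library depth is unknown and the labelled cell type could not be checked against markers.

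H2AK119Ub is written by the RING1A and RING1B ligases of Polycomb repressive complex 1 (PRC1) and marks the silent CpG-rich promoters of many developmental regulators. Forkhead genes encode transcription factors with a winged-helix DNA-binding domain, and many of them are developmental regulators. Foxq1 acts in hair and stomach epithelium, Foxf2 in the mesenchyme of gut and palate and in brain pericytes, and Foxc1 in mesoderm, the anterior eye and the stromal niche cells of bone marrow. In human acute myeloid leukaemia, FOXC1 is known to be expressed in a subset of cases.

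H2AK119Ub peaks lay at Foxf2 and at Foxc1, and none was listed at Foxq1. The peak lists split over the pair. Foxc1 had a peak in HOXA9, PML-RARa and MLL-AF9 cells and none in the non-transduced list, a set of libraries shared by 2.80% of the joined regions of the series. Foxf2 had one in PML-RARa, MLL-AF9 and non-transduced cells and none in HOXA9, a set shared by 10.9%. Only the PML-RARa and MLL-AF9 lists marked both genes. No mm9 annotation was used here, so the genes were placed at approximate positions of 31.65 Mb (Foxq1), 31.72 Mb (Foxf2) and 31.9 Mb (Foxc1). Each was read as an interval of 5 kb to either side.

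The sequences just before the starts of both marked genes are shown because PRC1 is brought to unmethylated CpG-rich DNA by its KDM2B-containing form. A promoter entry in RefSeq (GRCm38.p6) was matched for 2 of the 3 genes, Foxf2 and Foxc1. The 250 bases upstream of each start, on the plus strand, are printed with every CG in capitals. They were chr13:31625566-31625815 for Foxf2 and chr13:31806396-31806645 for Foxc1 in GRCm38.p6, positions that do not apply to mm9.
Foxf2: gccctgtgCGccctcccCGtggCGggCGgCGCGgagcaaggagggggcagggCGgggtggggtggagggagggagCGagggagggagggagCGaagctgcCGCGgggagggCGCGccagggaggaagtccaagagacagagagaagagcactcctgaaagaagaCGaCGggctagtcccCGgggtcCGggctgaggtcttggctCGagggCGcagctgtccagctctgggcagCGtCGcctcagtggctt
Foxc1: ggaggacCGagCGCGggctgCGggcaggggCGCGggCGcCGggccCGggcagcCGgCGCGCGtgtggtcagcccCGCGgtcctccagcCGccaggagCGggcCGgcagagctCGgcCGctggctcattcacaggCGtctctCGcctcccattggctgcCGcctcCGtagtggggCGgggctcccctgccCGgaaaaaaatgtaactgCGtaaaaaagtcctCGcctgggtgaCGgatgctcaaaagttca
The motif searched was CG, which reads the same on both strands. It occurred 21 times before Foxf2 and 29 times before Foxc1, against a median of 6 over the 32841 promoters of the table, 92.1% of which hold at least 1. As many as Foxf2's 21 were held by 16.4% of all promoters, and as many as Foxc1's 29 by 6.78%. Their G+C content was 71.6% and 70.8% (median of all promoters 52.4%), and the observed to expected CpG ratio was 0.724 before Foxf2 and 0.928 before Foxc1 (median 0.374). Both promoters were thus richer in CpG than the median promoter, Foxc1's the more so. Without an entry for Foxq1, marked and unmarked genes could not be compared, and a link between CpG content and the mark was not tested. The sequences are placed in GRCm38.p6 and the peaks in mm9, so where the sequences lie within a peak was not resolved.

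Foxc1, the gene of mesoderm, eye and marrow niche, was covered in all 3 oncogene lists. The HOXA9 peak ran from 31884656 to 31915437 (30.8 kb), the PML-RARa peak from 31887158 to 31909125 (22.0 kb) and the MLL-AF9 peak from 31889679 to 31909209 (19.5 kb). Both fusion oncogene peaks lay wholly within the HOXA9 peak. All 3 contained the whole interval of the gene position. The stretch common to all 3 was 19.4 kb, from 31889679 to 31909125, or 63.2% of the joint span.

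The PML-RARa and MLL-AF9 peaks at Foxc1 ended 84 bp apart on the right, the smallest of all edge differences in the window. Of the 808 one-to-one pairs of these 2 lists, 9.16% ended closer together. The edge was picked as the smallest, so this share does not show it to be unusual. A one-to-one pair is a peak of each list that overlaps the other and no further peak of either list. The left ends of the same peaks lay 2521 bp apart, against a median of 2040 bp, and 53.2% of pairs began closer together. The HOXA9 peak extended past both, its right end by 6312 bp beyond PML-RARa and 6228 bp beyond MLL-AF9. Its width was 1.40 times that of the PML-RARa peak, and 12.8% of their 453 pairs had a higher ratio (median 0.924). Set against the MLL-AF9 peak the ratio was 1.58, exceeded in 10.2% of 421 pairs (median 1.01). Over all pairs the median ratios thus showed little overall difference in width, though not how close single pairs were. The HOXA9 peak at Foxc1 exceeded its partners by more than most did.

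Foxf2, the gene of gut and palate mesenchyme, was covered in both fusion oncogene lists and in non-transduced cells. The peak ran from 31704180 to 31725523 in PML-RARa (21.3 kb), from 31704604 to 31723891 in MLL-AF9 (19.3 kb) and from 31701836 to 31724094 in non-transduced cells (22.3 kb). The left ends spread over 2768 bp and the right ends over 1632 bp. The common stretch was 19.3 kb, or 81.4% of the joint span. It equalled the MLL-AF9 peak, which lay within the other two.

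Compared with the non-transduced peak, the fusion oncogene peaks at Foxf2 were slightly narrower. The width ratio was 0.959 in PML-RARa and 0.867 in MLL-AF9, and the medians over all pairs were 1.03 (741 pairs) and 0.946 (692 pairs). A higher ratio was found in 62.5% and 57.9% of these pairs, so neither change of width stood apart from the rest of its list. The PML-RARa peak began 2344 bp from the non-transduced one (median over their pairs 2110 bp) and ended 1429 bp from it (median 1950 bp). The MLL-AF9 peak began 2768 bp from the non-transduced one (median 1630 bp) and ended 203 bp from it (median 1650 bp). The right ends were thus closer than in the median pair, and the left ends further apart, mostly by little. Pairs with closer left ends made up 51.8% for PML-RARa and 58.5% for MLL-AF9. Pairs with closer right ends made up 44.7% and 21.8% in the same order. Relative to the approximate gene position of 31.72 Mb, all 3 peaks reached further left than right. They reached 15.8, 15.4 and 18.2 kb to the left and 5.52, 3.89 and 4.09 kb to the right. These values are for PML-RARa, MLL-AF9 and non-transduced cells in that order. The PML-RARa peak alone held the whole position interval of Foxf2; the other two ended inside it.

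**Figure D1:**
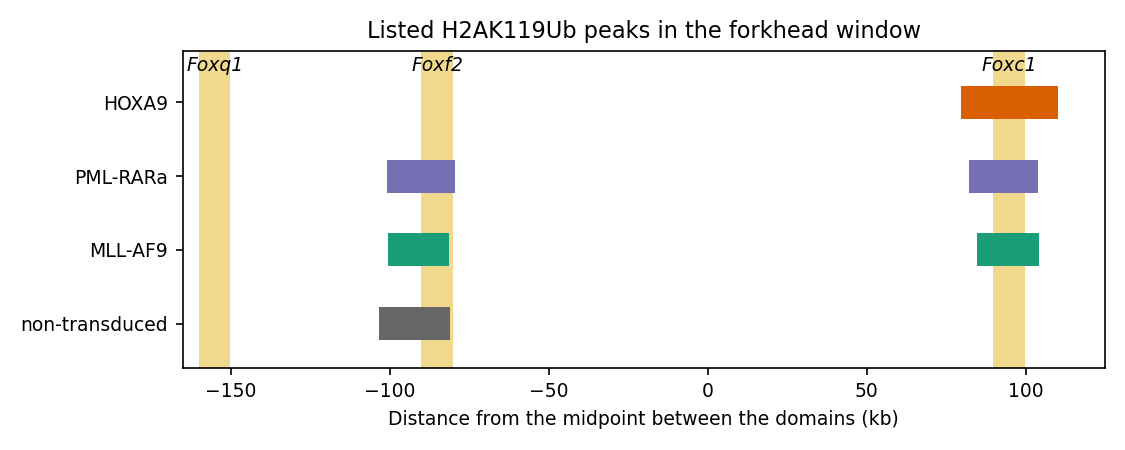
Listed peaks (bars) of each library in the 290 kb window, against distance in kb from the midpoint between both domains; shaded bands are the intervals of 5 kb to either side of the approximate gene positions. Bars stand at Foxc1 in the 3 oncogene rows and at Foxf2 in all rows but HOXA9, and the Foxq1 band is empty.

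**Figure D2:**
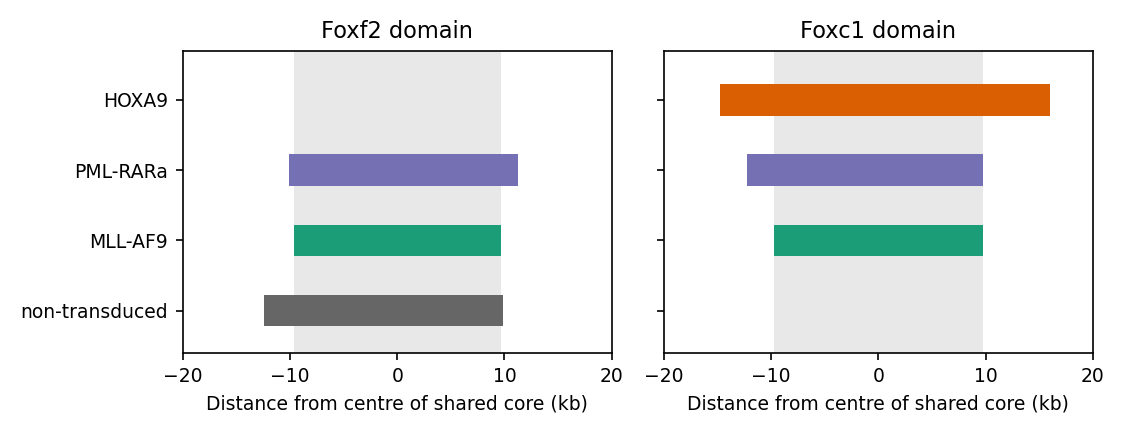
Peaks at Foxf2 (left) and Foxc1 (right) as bars, against distance in kb from the centre of the stretch shared by the 3 peaks of each gene (grey, 19.3 and 19.4 kb). The Foxf2 bars differ by at most 2768 bp at an end, and the HOXA9 bar at Foxc1 passes both others on both sides.

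In the lists that marked both genes, the domains were of nearly equal width. In PML-RARa the Foxc1 peak was 1.03 times as wide as the Foxf2 peak, and in MLL-AF9 1.01 times. Between them lay 162 kb without a peak in PML-RARa, and 166 kb without one in MLL-AF9. No list held a peak in the 159 kb between the joint domains, so no peak bridged the genes. RefSeq (GRCm38.p6) orders 2 genes there, the snRNA gene Gm25186 and the snoRNA gene LOC115488220, and 2 lncRNA genes, Gm11377 and 1700018A04Rik, between Foxq1 and Foxf2. The next protein-coding genes are Hus1b before Foxq1 and Gmds after Foxc1.

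Summed over the window, the HOXA9 list covered 30.8 kb (10.6% of the window) and the PML-RARa list 43.3 kb (14.9%). The MLL-AF9 list covered 38.8 kb (13.4%) and the non-transduced list 22.3 kb (7.68%). The covered length was therefore larger in each oncogene library than in the non-transduced one. In HOXA9 this was so with the same number of peaks, 1 in each, at different genes. Whole lists did not follow the same order, since genome-wide HOXA9 peaks covered 13.4 Mb, PML-RARa peaks 35.7 Mb, MLL-AF9 peaks 27.0 Mb and non-transduced peaks 31.4 Mb.

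Foxq1, the gene of hair and stomach epithelium, had no listed peak in any of the 4 libraries. The nearest listed peak of any library was the non-transduced one at Foxf2, whose left end lay 51.8 kb from the stated Foxq1 position. Absence of a listed peak does not show absence of the mark, since the lowest listed score was 703 in MLL-AF9 and 700 in each of the other lists, and numbers are missing from the peak names.

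The score is the authors' own value per peak, and is used here only to rank peaks within a list. All 6 peaks scored above the median of their list. The Foxc1 peak had a score of 1122 in HOXA9 (rank 72 of 620), 1427 in PML-RARa (rank 176 of 1772) and 1118 in MLL-AF9 (rank 346 of 1408, a score shared by 50 peaks). The Foxf2 peak had 1343 in PML-RARa (rank 285 of 1772), 1080 in MLL-AF9 (rank 469 of 1408) and 1413 in non-transduced cells (rank 75 of 1332). Foxc1 ranked above Foxf2 in both lists that held both.

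The place of a peak within its list differed between libraries. The Foxf2 peak scored above 83.2% of the PML-RARa list, 66.5% of the MLL-AF9 list and 94.4% of the non-transduced list. The Foxc1 peak scored above 88.2% of the HOXA9 list, 90.0% of PML-RARa and 71.9% of MLL-AF9. MLL-AF9 thus gave the lowest place at both genes, and the highest share of any was that of Foxf2 in non-transduced cells. A share depends on how many peaks a list holds, from 620 in HOXA9 to 1772 in PML-RARa. By rank alone, Foxc1 in HOXA9 (72) stood above Foxf2 in non-transduced cells (75) and Foxc1 in PML-RARa (176). On chromosome 13 alone, the Foxc1 peak ranked 2 of 21 by score in HOXA9, 4 of 71 in PML-RARa and 7 of 39 in MLL-AF9. The Foxf2 peak ranked 8 of 71 in PML-RARa, 10 of 39 in MLL-AF9 and 3 of 32 in non-transduced cells. By width on this chromosome, Foxc1 ranked 2, 18 and 11 in HOXA9, PML-RARa and MLL-AF9 in that order, and Foxf2 20, 12 and 8 in PML-RARa, MLL-AF9 and non-transduced cells. Over whole lists the 6 peaks were less prominent by width, from wider than 81.0% of the list (Foxc1 in HOXA9) down to wider than 59.9% (Foxf2 in non-transduced cells).

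**Figure D3:**
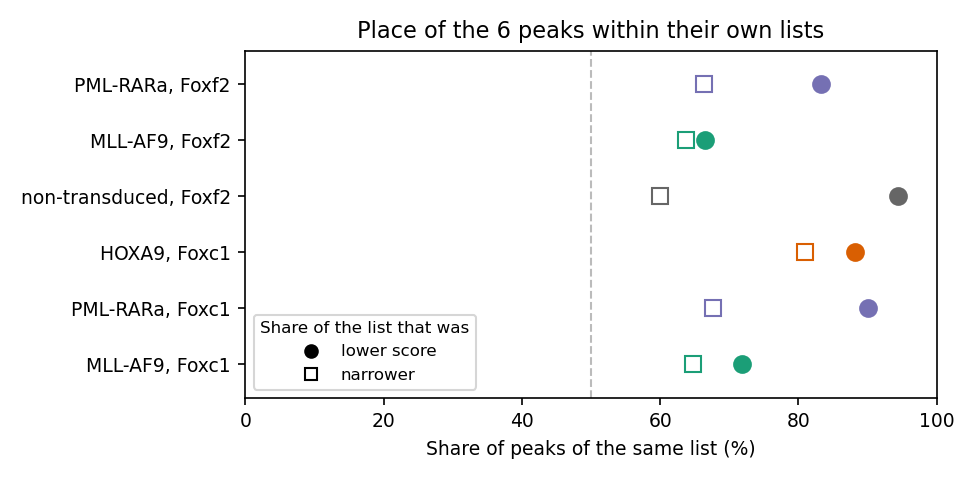
Share (%) of the peaks of the same list with a lower score (filled circles) and of those that were narrower (open squares), for each of the 6 peaks; the dashed line is the middle of a list. Every peak lies right of the line on both measures, and scores place from 66.5% (MLL-AF9, Foxf2) to 94.4% (non-transduced, Foxf2).

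Peak numbers show where an unlisted call may lie. They run in order along the chromosomes, and a missing number was read as a numbered call that is not in the list. At Foxf2 in HOXA9, listed peaks 215 and 217 (Foxc1) leave 1 number, 216, for the 10.5 Mb between them. The other lists hold 5 joined regions there, Foxf2 among them, and Foxq1 lies in it too. An unlisted HOXA9 call at Foxf2 is thus possible, but at most 1 of those 5 regions can hold it. At Foxc1 in non-transduced cells, peaks 409 (Foxf2) and 411 leave number 410 for 9.10 Mb with 15 regions of the other lists, Foxc1 among them. At least 1 number was missing in 195 of all 600 stretches between neighbouring HOXA9 peaks and in 328 of 1312 of the non-transduced list.

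At Foxq1 the lists differ in what they leave possible. No number was missing between the listed neighbours on both sides in MLL-AF9 (peaks 398 and 399, 9.60 Mb apart) or in non-transduced cells (peaks 408 and 409, 9.59 Mb apart), so no numbered call was left out at Foxq1 in either. In PML-RARa, number 499 is missing from the 2.65 Mb between peaks 498 and 500 that hold Foxq1, and in HOXA9 the missing 216 could lie there. Over the whole lists, at least 1 number was missing in 289 of 1752 stretches in PML-RARa and 285 of 1388 in MLL-AF9. Between Foxf2 and Foxc1 no number was missing in PML-RARa or MLL-AF9, so neither library had an unlisted numbered call between the genes.

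**Figure D4:**
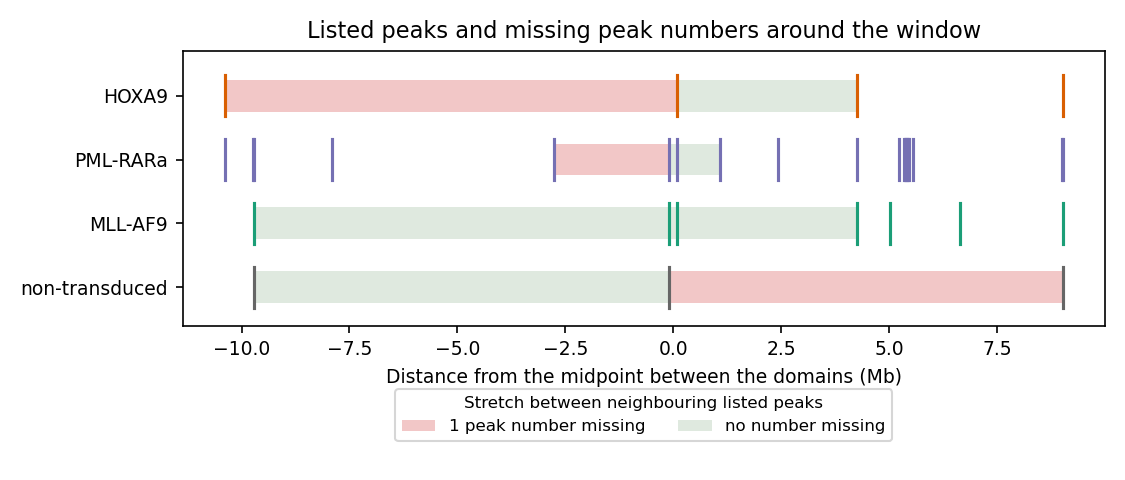
Listed peaks (vertical ticks) against distance in Mb from the midpoint between both domains, with the stretches next to the window's peaks shaded by whether a peak number is missing in them. Number 216 is missing left of Foxc1 in HOXA9, 499 left of Foxf2 in PML-RARa and 410 right of Foxf2 in non-transduced cells, while MLL-AF9 lacks none in its 3 shaded stretches.

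Distances from the window to the next listed peaks are given without a background, since the usual spacing of peaks was not computed. The nearest listed peaks outside the window were, in any library, PML-RARa peaks: one ending at 29053519, 2.65 Mb before the Foxf2 domain (score 1118), and one starting at 32894104, 0.979 Mb after the Foxc1 domain (score 751). The other lists had their next peak to the right 4.14 Mb (HOXA9), 4.15 Mb (MLL-AF9) and 9.10 Mb (non-transduced) from their last peak in the window.

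Across the series, the peaks of all 4 lists joined into 2575 regions. The Foxc1 set of libraries, all 3 oncogene lists without the non-transduced one, was found in 72 of them (2.80%), and by the mean of its score ranks Foxc1 ranked 2 of the 72. The Foxf2 set, all lists but HOXA9, was found in 280 (10.9%), where Foxf2 ranked 29. When each list kept its upper 50% by score, Foxf2's set was found in 123 of 1445 regions (8.51%) and Foxc1's in 52 (3.60%). Where all 3 oncogene lists had a peak, the non-transduced one lacked it in 72 of 381 regions (18.9%, exact Clopper-Pearson 95% interval 15.1 to 23.2, counting error only). Where both fusion oncogene lists had a peak, with HOXA9 left out of account, it lacked one in 267 of 856 (31.2%). Where all lists but HOXA9 had a peak, HOXA9 lacked it in 280 of 589 (47.5%, interval 43.4 to 51.7), a kind of gap that was frequent.

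Pairs of neighbours with both sets of libraries are counted here and not tested, since the stretch was chosen with its lists known. Of the 72 regions with Foxc1's set of libraries, 8 (11.1%) had a region with Foxf2's set within 159 kb, the distance between both genes' domains. Foxc1 is by construction 1 of these 8, so 7 lay elsewhere. When the genome was tiled in windows of 290 kb up to the last listed peak of each chromosome, 8 of 8919 windows held a region of both sets (0.0897%). The forkhead genes themselves account for 1 of these 8. HOXA9 peaks were present in 6.29% of all tiled windows, PML-RARa peaks in 14.4%, MLL-AF9 peaks in 12.0%, non-transduced peaks in 10.9%, and peaks of all 4 lists in 4.07%. Of the tiled windows, 7.47% held 2 or more regions, as the forkhead window does.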

How the data were processed

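Cells were fixed with 1% formaldehyde and chromatin was sheared to about 200 to 300 bp, per the labels' protocols. Bowtie, MACS2 and the build mm9 are named in the submitters' processing notes, with versions, settings and any use of the input not given in the sources used here. The authors deposited, for each immunoprecipitated library, 1 peak list with 5 columns (chromosome, start, end, name and score). The score deposited for each peak has no stated scale. The input was not analysed here. Starts are printed counting from 1.

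Peaks were taken when they shared at least 1 bp with the window, and peaks of all lists that overlapped or touched were joined into regions. With 1 library per group there was no test, so the text holds no p-value. A rank is 1 plus the number of peaks of the same list with a higher score. Every peak of the window is named; the members, lists and alternatives were chosen with earlier results of these data known. Joining and overlap were tested on simulated data, where 120 of 120 shared regions were found. Tables were handled with pandas 2.3.3 and numpy 2.4.6 in Python 3.11.15, intervals came from scipy 1.17.1, and plots from matplotlib 3.10.9.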

Additional observations from a re-analysis of the deposited data

How the results depend on the processing

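Of 80 values recomputed, 70 stayed as they were or, for counts, within 1.5 times. The peaks, covered length and genes of the window did not change when each list kept its upper 75% or 50% by score or its best 620 peaks, or when peaks within 1000 bp were joined (fewer peaks can fill no gap, and all 6 ranked high enough to stay). Peaks and covered length did not change with 100 kb more on each side or with at least 50% of a peak in the window. The layout fixed these outcomes, since all 6 peaks lay wholly inside the window and the nearest peak outside was 0.979 Mb away. Joining within 1000 bp could not act either, because the domains lay 159 kb apart. Counting a peak within 25 kb of a gene changed no gene's number of lists. Demanding that a peak hold the whole position interval left 1 list at Foxf2 (PML-RARa). With the upper 50% by score, 123 of 1445 regions had Foxf2's set of libraries, against 280 of 2575 with full lists. With the HOXA9 list left out, an alternative chosen after seeing the data, 589 regions had Foxf2's set and 267 had Foxc1's, since the set then names fewer lists. Ranked by width in place of score, the Foxc1 peak passed 81.0% of the HOXA9 list, 67.6% of PML-RARa and 64.8% of MLL-AF9, and the Foxf2 peak 66.4% of PML-RARa, 63.8% of MLL-AF9 and 59.9% of the non-transduced list. No paired analysis was possible because each group had 1 library. The unknown depth limits every absence, and the gene positions, stated to 0.01 Mb, limit where in a peak a gene lies.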
